A study of Sus scrofa with 7 samples.

Results

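The lysosome is the acidic compartment in which cells take apart proteins, glycans and lipids that arrive by endocytosis and autophagy. Its soluble hydrolases are made in the endoplasmic reticulum, tagged with mannose 6-phosphate in the Golgi, carried by sorting receptors and switched on by the low pH that a proton pump, the V-ATPase, maintains, while heavily glycosylated membrane proteins line the compartment. Extra-embryonic endoderm, and visceral endoderm above all, is an absorptive epithelium known for large endocytic vacuoles and lysosomes, in which it breaks down maternal protein and lipid for the embryo. The genes described here are the lysosomal hydrolases, their activators and the membrane proteins of the organelle, together with a few V-ATPase subunits, the transcription factors TFEB and TFE3, granulin and a sorting receptor. Of 50 listed symbols, 39 were found by gene name among the 29510 rows of the deposited count and FPKM tables (FPKM, fragments per kilobase of gene, scaled to library size). Of the 39, 38 passed the filter on low counts and were tested among 17447 genes. SGSH, a heparan sulfatase, was not tested, with 2 counts in pXEN line 3 and none in the other libraries. A further 7 symbols (LGMN, GAA, GLB1, HEXA, MAN2B1, MANBA and IDS) are carried by rows without a name and were matched by their Ensembl identifier. Those 7 are counted apart, and IDUA, PPT1, CLN3 and ATP6AP1 are not analysed here.

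RNA was sequenced from 7 porcine cell lines, 1 library per line. The pXEN group held 3 extra-embryonic endoderm lines, lines 1 and 2 at passage 26 and line 3 at passage 23, grown out of inner cell masses of parthenogenetic blastocysts in LCDM medium (LIF, CHIR99021, dimethindene maleate and minocycline, here with Y27632) over inactivated mouse embryonic fibroblasts. The nESC group held 2 naïve-like embryonic stem cell lines derived from inner cell masses, at passages 21 and 22, kept on the same kind of feeder in a medium with FGF, LIF, PD0325901, CHIR99021, SB431542 and doxycycline. The pESC group held 2 primed embryonic stem cell lines, both at passage 20, converted from naïve-like cells according to the labels and kept on mouse STO fibroblasts with activin A, bFGF, EGF and LIF. Every group thus received LIF. Medium differed with cell type in every comparison, and the feeder in those with pESCs, and the parts of each cannot be told apart. The libraries held 10408164 to 12995720 counts on genes, so that 3 counts, used as a detection floor, stood for 0.231 to 0.288 CPM (counts scaled to the library total). The endoderm factors GATA4, GATA6, SOX17 and HNF4A summed to 711 to 946 FPKM in the pXEN lines, against a mean of 12.1 FPKM in nESCs. SOX2 stood at 102 to 154 FPKM in the 4 ESC lines and at 0, 1.98 and 0 FPKM in pXEN lines 1, 2 and 3. POU5F1, a defining ESC marker, had at most 5 counts in any library. NANOG was higher in pXEN lines (15.5, 4.50 and 13 FPKM) than in the ESC lines (at most 1.43 FPKM). Only SOX2 among the ESC marker rows found thus matched the ESC labels. By immunofluorescence, RT-PCR and Western blotting, the paper found OCT4 (POU5F1), SOX2 and NANOG in nESCs but not in pXEN cells. It also found OCT4 and SOX2 by staining in primed cells. Whether the POU5F1 and NANOG rows stand for those genes was not tested. Line 2 stood apart from pXEN lines 1 and 3 in fibroblast markers. The 7 of 10 listed fibroblast markers found summed to 246 FPKM in that line and to 17.4 and 20.4 FPKM in lines 1 and 3. The sums were 30.5 to 35.8 FPKM in nESCs and 57.3 to 88.3 FPKM in pESCs. In line 2 most of the sum came from the collagens COL1A1, COL3A1 and COL1A2 (144, 77.5 and 21.1 FPKM). LUM and POSTN were highest there but low, at 1.5 and 0.862 FPKM. TWIST1 stood at 0.192 FPKM in line 2 against 15.9 to 28.1 FPKM in the ESC lines. DCN stood at 1.4 FPKM against 18.3 and 38.8 FPKM in the pESC lines. Macrophage markers, 8 of 10 found, summed to 0.679 to 2.93 FPKM in pXEN cells, 7.09 to 9.16 FPKM in nESCs and 4.28 to 6.95 FPKM in pESCs. Most of the ESC sums came from AIF1, at 7.59 and 5.77 FPKM in nESCs and 3.24 and 5.98 FPKM in pESCs. The other rows found reached at most 0.967 FPKM in an ESC line, with CD163 and C1QA at 0 in all 7 libraries.

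Most lysosomal genes were expressed at a higher level in pXEN cells than in either type of ESC. Against nESCs, 27 of the 38 tested genes were higher in pXEN cells and 2 were lower, or 71.1% and 5.26%, while 28.3% of all tested genes were called higher and 26.2% lower. Against pESCs, 26 were higher and 2 lower, or 68.4% and 5.26%, beside 23.9% and 24.4% of all genes. The median log2 fold change of the 38 genes was 1.11 against nESCs and 0.91 against pESCs, where the medians of all genes were -0.00 and -0.01. These comparisons share the pXEN libraries and are not independent. A gene was called when edgeR's quasi-likelihood test gave a Benjamini-Hochberg adjusted p below 0.05 over all 17447 genes. The 3 pXEN lines all lay above all 4 ESC lines in 26 of the 38 genes (68.4%; 24.9% of all genes) and below them in 1, TFEB (2.63%; 23.0% of all genes). Without pXEN line 2, whose fibroblast collagens were high, the first count was 28, beside 29.1% of all genes. In bulk RNA, fewer cells of a type and less RNA per cell cannot be told apart.

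Between the ESCs the difference was smaller. In pESCs against nESCs 11 of the 38 genes were higher (28.9%; 19.0% of all genes) and 4 lower (10.5%; 13.3% of all genes), with a median log2 fold change of 0.09. Added together, the 39 genes found by name reached 3523, 3289 and 3253 FPKM in pXEN lines 1, 2 and 3, 855 and 790 FPKM in the nESC lines and 1392 and 1459 FPKM in the pESC lines. The pESC sums thus lay between the other 2 groups, and no groups overlapped. By share of reads, the 39 genes took 0.651 ± 0.0217% of all gene counts in pXEN cells (SD, n = 3), 0.212 ± 0.00919% in nESCs (SD, n = 2) and 0.337 ± 0.00354% in pESCs (SD, n = 2). One gene, NPC2, made up 30.9% of the summed FPKM in pXEN cells. Without it the mean sums were 2318 FPKM in pXEN cells, 801 FPKM in nESCs and 1330 FPKM in pESCs, in the same order.

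**Figure D1:**
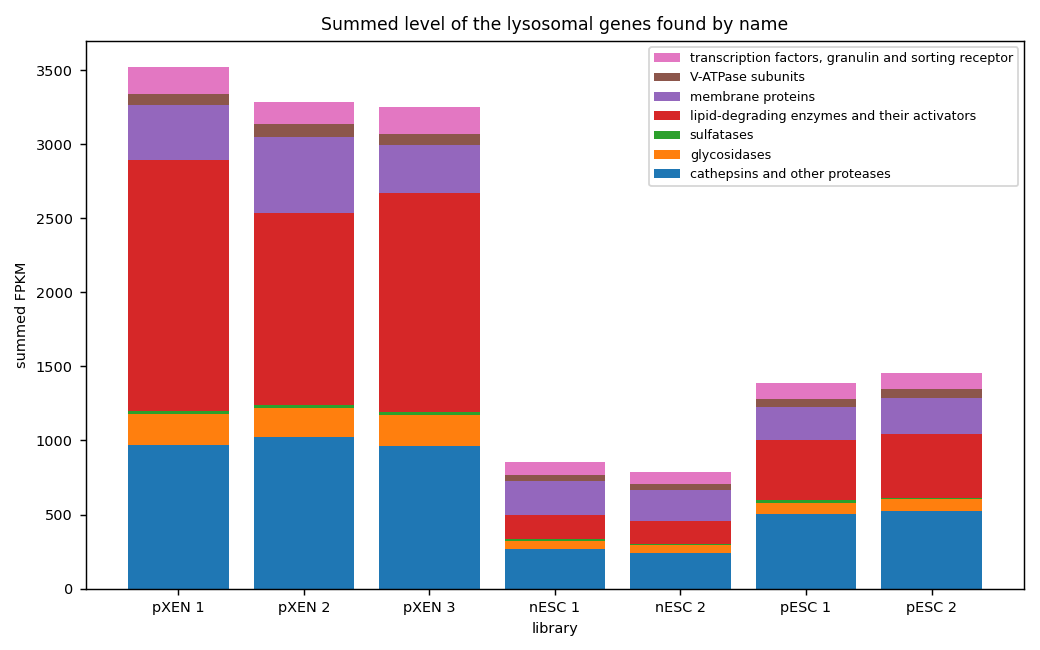
Summed FPKM of the 39 lysosomal genes found by name, 1 bar per library, split by the role of the genes. The pXEN bars stand at 3253 to 3523 FPKM, the nESC bars at 790 and 855 FPKM and the pESC bars at 1392 and 1459 FPKM, with lipid-degrading enzymes and their activators, which include NPC2, as the tallest block in pXEN cells.

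Levels can be compared between genes on the FPKM scale, which divides by gene length. NPC2 (mean 1038 FPKM) and CTSL (469 FPKM) led in pXEN cells, followed by PSAP (284 FPKM) and CTSB (270 FPKM). Of the tested genes, 99.5% lay below NPC2 and 99.1% below CTSL in these cells. In nESCs PSAP, LAMP1, CD63, CTSB and CTSL were close to each other, at means of 92.3, 88.7, 76.5, 72.1 and 68.6 FPKM. In pESCs PSAP came first with 279 FPKM and CTSZ was next with 144 FPKM, ahead of CTSL with 135 FPKM, whose lines at 122 and 149 FPKM spanned the CTSZ value.

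**Figure D2:**
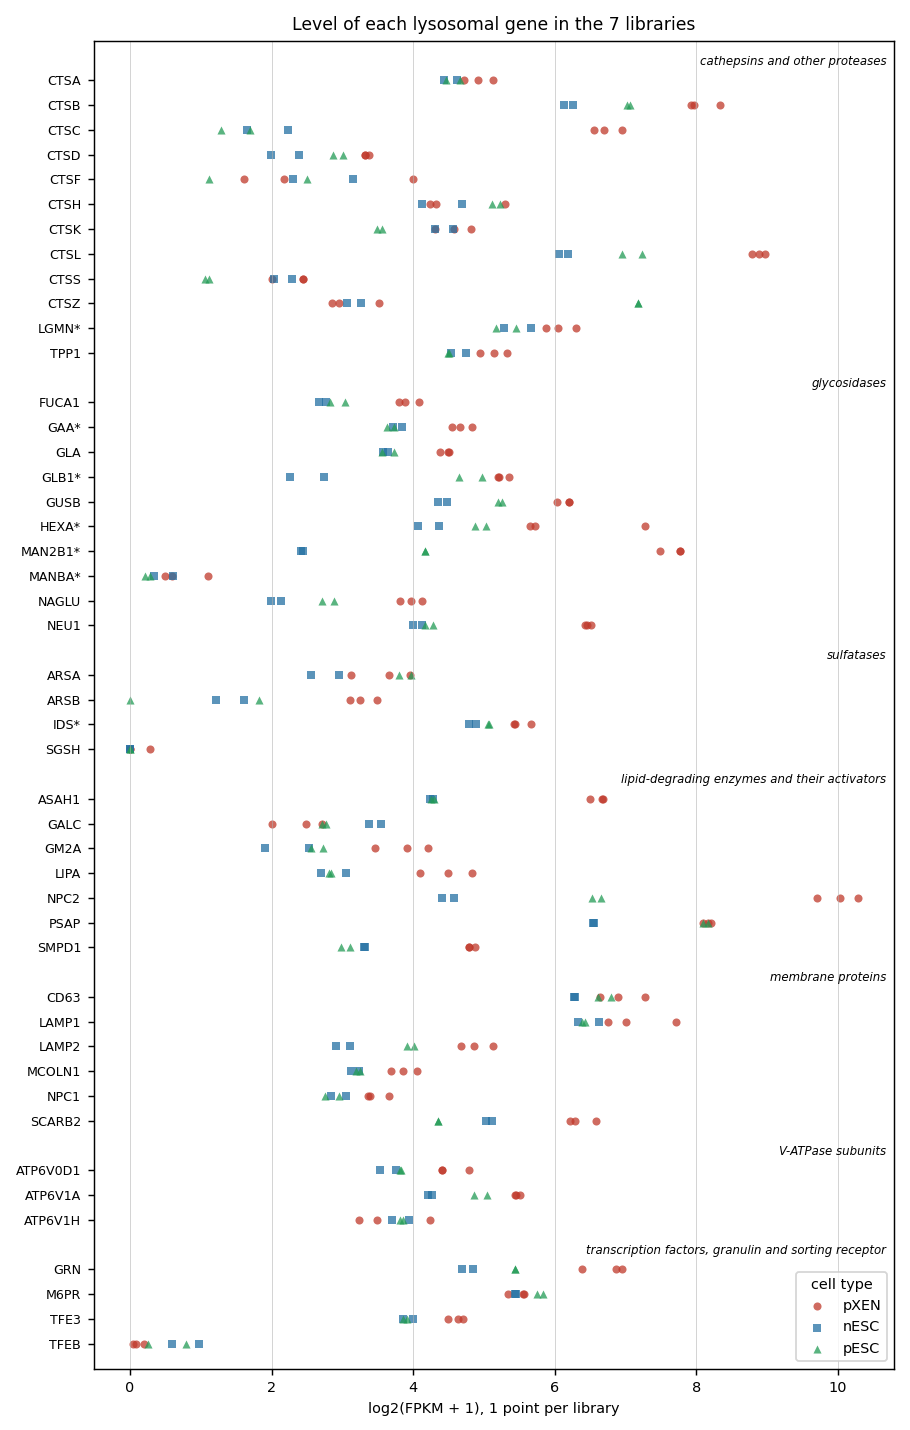
Level of each lysosomal gene as log2(FPKM + 1), 1 point per library (circles pXEN, squares nESC, triangles pESC), grouped by role; an asterisk marks genes matched by identifier. The pXEN circles lie to the right of all squares and triangles for 26 of the 38 tested genes found by name, CTSZ is far to the right in both pESC lines, and TFEB lies near 0 with the pXEN circles furthest left.

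Of the cathepsins and other proteases, 5 of 11 (45.5%; 28.3% of all genes) were higher in pXEN cells than in nESCs and none was lower (26.2% of all genes). Against pESCs 6 were higher (54.5%; 23.9% of all genes) and 1 lower (9.09%; 24.4% of all genes). CTSC, or dipeptidyl peptidase I, which trims the ends of other hydrolases to activate them, had 103, 122 and 93.0 FPKM in pXEN lines 1, 2 and 3, 3.71 and 2.15 FPKM in the nESC lines and 1.44 and 2.22 FPKM in the pESC lines. It was well expressed in pXEN cells and low in all 4 ESC lines. Its log2 fold change was 5.17 ± 0.29 (SE) against nESCs (edgeR adjusted p = 5.03e-06), 35.9-fold, and 5.85 ± 0.30 against pESCs (adjusted p = 6.35e-06), 57.7-fold. The endopeptidase CTSL (chr10:76997766-77003512 in Sscrofa10.2) had 470, 439 and 498 FPKM in the pXEN lines, 71.5 and 65.7 FPKM in the nESC lines and 122 and 149 FPKM in the pESC lines. The 3 groups were ordered pXEN, pESC, nESC without overlap. It was 6.81-fold higher in pXEN cells than in nESCs (log2 2.77 ± 0.13, adjusted p = 2.65e-06) and 3.48-fold higher than in pESCs (log2 1.80 ± 0.12, adjusted p = 2.33e-05). A second row named CTSL (chr10:31907424-31913492) was much weaker, at 15.9, 20.8 and 16.7 FPKM in the pXEN lines, 12.6 and 11.4 FPKM in the nESC lines and 2.52 and 2.69 FPKM in the pESC lines. In that row pXEN cells were also highest, but pESCs were lower than nESCs (log2 -2.21 ± 0.22, adjusted p = 0.000277), opposite to the first row. How reads shared by the related sequences were divided is not known, so both rows are uncertain, and the gene name table calls the first row CTSV.

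CTSB, another abundant endopeptidase, had 248, 320 and 242 FPKM in the pXEN lines, 75.5 and 68.7 FPKM in nESCs and 132 and 129 FPKM in pESCs. It followed the same order as CTSL, with log2 fold changes of 1.90 ± 0.15 (adjusted p = 2.84e-05) against nESCs and 1.05 ± 0.15 (adjusted p = 0.000674) against pESCs. CTSZ, a carboxypeptidase, behaved differently. It had 6.73, 10.4 and 6.22 FPKM in the pXEN lines, 8.60 and 7.36 FPKM in the nESC lines and 144 FPKM in both pESC lines. It was high in primed cells and low elsewhere, 17.8-fold higher in pESCs than in nESCs (log2 4.15 ± 0.25, adjusted p = 2.97e-05) and 18.3-fold lower in pXEN cells than in pESCs (log2 -4.19 ± 0.21, adjusted p = 6.35e-06). The difference between pXEN cells and nESCs was log2 -0.04, with an interval of 2 standard errors from -0.49 to 0.41. The neighbour NELFCD overlaps CTSZ on the opposite strand, as other rows do CTSA, ARSB, NPC1, MCOLN1, ATP6V0D1 and GAA. NFKB1 overlaps MANBA on the same strand. The strand setting of the counting is not given in the sources used here.

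CTSS, an endopeptidase best known from antigen-presenting cells, had 4.45, 3.02 and 4.43 FPKM in the pXEN lines, 3.10 and 3.87 FPKM in nESCs and 1.16 and 1.08 FPKM in pESCs. It was low in primed cells, with a log2 fold change of -1.64 ± 0.36 in pESCs against nESCs (adjusted p = 0.0105), a call lost without nESC line 2 or either pESC line (adjusted p = 0.0546 to 0.0708). CTSK, the collagen-degrading cathepsin, was likewise lower in pESCs than in nESCs (log2 -0.99 ± 0.20, adjusted p = 0.00709; 0.0519 without nESC line 1 and 0.0599 without pESC line 2) and higher in pXEN cells than in pESCs (log2 1.13 ± 0.19, adjusted p = 0.00159), while pXEN cells and nESCs overlapped. CTSD, the aspartic protease, was higher in pXEN cells against nESCs alone (log2 1.33 ± 0.29, adjusted p = 0.00515; 0.46 ± 0.27, adjusted p = 0.198 against pESCs), in a row of 777 bases. TPP1, which removes tripeptides, was higher in both comparisons by 0.51 and 0.68 on the log2 scale, though against nESCs not without nESC line 2 (adjusted p = 0.11) or with upper-quartile scaling (adjusted p = 0.0671). CTSA, which protects NEU1 and beta-galactosidase, lay above all ESC lines but was not called, at 0.41 ± 0.16 (adjusted p = 0.0613) and 0.39 ± 0.16 (adjusted p = 0.0814). CTSF and CTSH were not called in any comparison and were uneven within the pXEN group, CTSF at 14.9, 3.50 and 2.04 FPKM and CTSH at 17.9, 38.2 and 18.9 FPKM. CTSF is listed in a pair of rows of equal length on chromosome 2 that could split its reads. LGMN, the asparaginyl endopeptidase matched by identifier, was higher in pXEN cells in both comparisons (log2 0.60 ± 0.18, adjusted p = 0.0213, and 0.79 ± 0.18, adjusted p = 0.00766), but not without nESC line 2 (adjusted p = 0.16) and pESC line 1 (adjusted p = 0.0806) respectively, nor against nESCs with upper-quartile scaling (adjusted p = 0.0582).

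All 5 glycosidases found by name were higher in pXEN cells in both comparisons, beside 28.3% of all genes against nESCs and 23.9% against pESCs. NEU1, which removes sialic acid, had 85.3, 87.0 and 90.2 FPKM in the pXEN lines, 14.9 and 16.5 FPKM in nESCs and 16.9 and 18.4 FPKM in pESCs. The pXEN lines were close to each other and far above both ESC groups, between which the log2 difference was 0.16 ± 0.12 (adjusted p = 0.377). The log2 fold change was 2.47 ± 0.12 against nESCs (adjusted p = 3.04e-06) and 2.32 ± 0.12 against pESCs (adjusted p = 6.35e-06). NAGLU, which acts on heparan sulfate, had 16.4, 14.6 and 13 FPKM in the pXEN lines, 3.38 and 2.98 FPKM in nESCs and 6.39 and 5.53 FPKM in pESCs. Its groups fell in the order pXEN, pESC, nESC, with log2 fold changes of 2.20 ± 0.18 (adjusted p = 3.45e-05) and 1.31 ± 0.17 (adjusted p = 0.00051) for pXEN cells. FUCA1, the fucosidase, had 13.8, 12.9 and 16 FPKM in the pXEN lines, 5.78 and 5.33 FPKM in nESCs and 7.20 and 6.09 FPKM in pESCs. It was 2.55-fold higher in pXEN cells than in nESCs (adjusted p = 0.000307) and 2.15-fold higher than in pESCs (adjusted p = 0.000998). GUSB, the beta-glucuronidase, was higher by 1.78 and 0.95 on the log2 scale, and GLA, the alpha-galactosidase, by 0.90 and 0.87.

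The largest glycosidase difference came from a row matched by identifier. MAN2B1, the lysosomal alpha-mannosidase (chr2:66706854-66724774), had 217, 217 and 179 FPKM in the pXEN lines, 4.41 and 4.34 FPKM in nESCs and 17.0 and 16.9 FPKM in pESCs. Its 3 groups were widely separated, and pXEN cells were 46.5-fold above nESCs (log2 5.54 ± 0.15, adjusted p = 3.22e-07) and 12.1-fold above pESCs (log2 3.60 ± 0.13, adjusted p = 2.11e-06). HEXA, which makes the alpha chain of hexosaminidase, had 51.6, 154 and 49.4 FPKM in the pXEN lines, 19.6 and 15.8 FPKM in nESCs and 28.4 and 31.6 FPKM in pESCs. Line 2 was 3.12 times as high as line 3, and it was also the line with high fibroblast collagens. With all lines the log2 fold changes of HEXA were 2.26 ± 0.51 (adjusted p = 0.00624) and 1.51 ± 0.49 (adjusted p = 0.0339), and without line 2 they were 1.5 (adjusted p = 1.01e-05) and 0.76 (adjusted p = 0.000629). With any 1 ESC line left out the call against pESCs was lost (adjusted p = 0.0545 to 0.163), and without nESC line 2 so was that against nESCs (adjusted p = 0.0548). The call against pESCs was also lost in limma fits and with only the groups compared (adjusted p = 0.0555 to 0.0599). GLB1, the beta-galactosidase, had 39.8, 35.9 and 35.5 FPKM in the pXEN lines, 5.65 and 3.80 FPKM in nESCs and 24.1 and 30.4 FPKM in pESCs. Here the nESCs stood apart. The log2 fold change was 2.96 ± 0.22 in pXEN cells (adjusted p = 1.88e-05) and 2.51 ± 0.23 in pESCs (adjusted p = 0.000177), each against nESCs, and 0.45 ± 0.19 between pXEN cells and pESCs (adjusted p = 0.0779). Its row lies on an unplaced scaffold. GAA, which degrades glycogen, was higher in pXEN cells by 0.95 and 1.07 on the log2 scale, in a row whose interval covers SGSH. MANBA, the beta-mannosidase, had 7 to 43 counts per library and was called higher against pESCs alone (log2 1.86 ± 0.66, adjusted p = 0.0456), a call lost without any 1 library but pXEN line 1 (adjusted p = 0.0523 to 0.223; log2 1.26 without pXEN line 2). It was also lost with DESeq2 (adjusted p = 0.054), upper-quartile scaling (adjusted p = 0.0514), both limma fits (adjusted p = 0.0571 and 0.0938) and a replicate block (adjusted p = 0.0904).

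ARSA, which acts on sulfatide, had 14.5, 7.73 and 11.6 FPKM in the pXEN lines, 6.75 and 4.89 FPKM in nESCs and 14.6 and 12.9 FPKM in pESCs. It was lowest in nESCs, with log2 fold changes of 0.94 ± 0.28 in pXEN cells (adjusted p = 0.021) and 1.23 ± 0.30 in pESCs (adjusted p = 0.0164), and pXEN cells and pESCs overlapped. The first call was lost without pXEN line 1 or nESC line 2 (adjusted p = 0.0586 and 0.14), and the second without nESC line 2 or either pESC line (adjusted p = 0.0597 to 0.102). ARSB, which acts on dermatan sulfate, had 28, 44 and 35 counts in the pXEN lines, 6 and 9 counts in nESCs and 12 and 0 counts in pESCs, in a row of 375 bases. It was called higher against pESCs (log2 2.79 ± 0.95, adjusted p = 0.0403), a call lost without pXEN line 1 or 3, either nESC line or pESC line 2 (adjusted p = 0.0653 to 0.0704), with only the groups compared (adjusted p = 0.0575) or with a replicate block (adjusted p = 0.0855), and not against nESCs (log2 2.36 ± 0.92, adjusted p = 0.0594). Without pESC line 2, the library with 0 counts, the log2 fold change of ARSB against pESCs was 1.78. IDS, the iduronate sulfatase matched by identifier, was higher in pXEN cells in both comparisons, by 0.69 and 0.48 on the log2 scale, the second not without either pESC line (adjusted p = 0.0915 and 0.109).

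The lipid-degrading enzymes and their activators included the most abundant member, and 6 of 7 were higher in pXEN cells than in nESCs (85.7%; 28.3% of all genes) and 1 lower (14.3%; 26.2%). Against pESCs 5 were higher (71.4%; 23.9% of all genes) and none lower (24.4% of all genes). NPC2, the soluble protein that hands cholesterol out of the lysosome (chr7:103573074-103582623), had 1244, 831 and 1038 FPKM in the pXEN lines, 22.8 and 20.1 FPKM in nESCs and 91.3 and 99.4 FPKM in pESCs. The lowest pXEN line was far above the highest ESC line. NPC2 was 48.1-fold higher in pXEN cells than in nESCs (log2 5.59 ± 0.21, adjusted p = 1.18e-06), 10.9-fold higher than in pESCs (log2 3.45 ± 0.19, adjusted p = 8.30e-06) and 4.40-fold higher in pESCs than in nESCs (log2 2.14 ± 0.19, adjusted p = 0.000177). Its membrane partner NPC1 was higher in pXEN cells by 0.58 ± 0.16 (adjusted p = 0.0159) and 0.70 ± 0.16 (adjusted p = 0.00811) on the log2 scale, calls that were lost without nESC line 2 (adjusted p = 0.115) and without pESC line 1 (adjusted p = 0.0821). The acid ceramidase ASAH1 had 101, 102 and 89.5 FPKM in the pXEN lines, 18.5 and 17.8 FPKM in nESCs and 18.1 and 18.6 FPKM in pESCs. The ESC groups overlapped, and pXEN cells were higher by a log2 fold change of 2.42 ± 0.11 in both comparisons (edgeR adjusted p = 2.58e-06 and 4.24e-06). SMPD1, the acid sphingomyelinase that produces ceramide, had 28.4, 26.7 and 26.5 FPKM in the pXEN lines, 8.97 and 8.85 FPKM in nESCs and 6.89 and 7.59 FPKM in pESCs. It was 3.04-fold and 3.77-fold higher in pXEN cells (adjusted p = 3.01e-05 and 2.28e-05).

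LIPA, the acid lipase for cholesteryl esters and triglycerides, had 21.5, 27.5 and 16.1 FPKM in the pXEN lines, 7.24 and 5.45 FPKM in nESCs and 6.03 and 6.16 FPKM in pESCs. It was higher in pXEN cells by log2 fold changes of 1.77 ± 0.24 (adjusted p = 0.000481) and 1.84 ± 0.24 (adjusted p = 0.000505). GM2A, the activator that presents ganglioside to hexosaminidase, had 17.5, 10 and 14 FPKM in the pXEN lines, 2.74 and 4.76 FPKM in nESCs and 5.62 and 4.87 FPKM in pESCs. It was higher in pXEN cells by 1.88 ± 0.31 (adjusted p = 0.00137) and 1.41 ± 0.30 (adjusted p = 0.00573), although the median of the 298 tested genes on its chromosome, 16, was -0.73 for pXEN cells against nESCs. Without pESC line 2 the call against pESCs was lost (adjusted p = 0.057). PSAP, the precursor of the saposins, had 271, 294 and 286 FPKM in the pXEN lines, 92.0 and 92.5 FPKM in nESCs and 272 and 286 FPKM in pESCs. The pESC lines lay within the range of the pXEN lines, and nESCs were low. The log2 fold change was 1.62 ± 0.10 in pXEN cells (adjusted p = 7.17e-06) and 1.58 ± 0.10 in pESCs (adjusted p = 4.06e-05), each against nESCs, and the difference between pXEN cells and pESCs was 0.03, with an interval of 2 standard errors from -0.15 to 0.21. GALC, which cleaves galactosylceramide, went the other way. It had 5.55, 3.00 and 4.57 FPKM in the pXEN lines, 10.7 and 9.36 FPKM in nESCs and 5.82 and 5.56 FPKM in pESCs, so nESCs were highest. It was lower than in nESCs both in pXEN cells (log2 -1.21 ± 0.24, adjusted p = 0.00361) and in pESCs (log2 -0.83 ± 0.27, adjusted p = 0.0463), the latter not without pXEN line 3 or any 1 ESC line (adjusted p = 0.0646 to 0.197), in limma fits (adjusted p = 0.0635 and 0.0795) or with a replicate block (adjusted p = 0.0525).

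**Figure D3:**
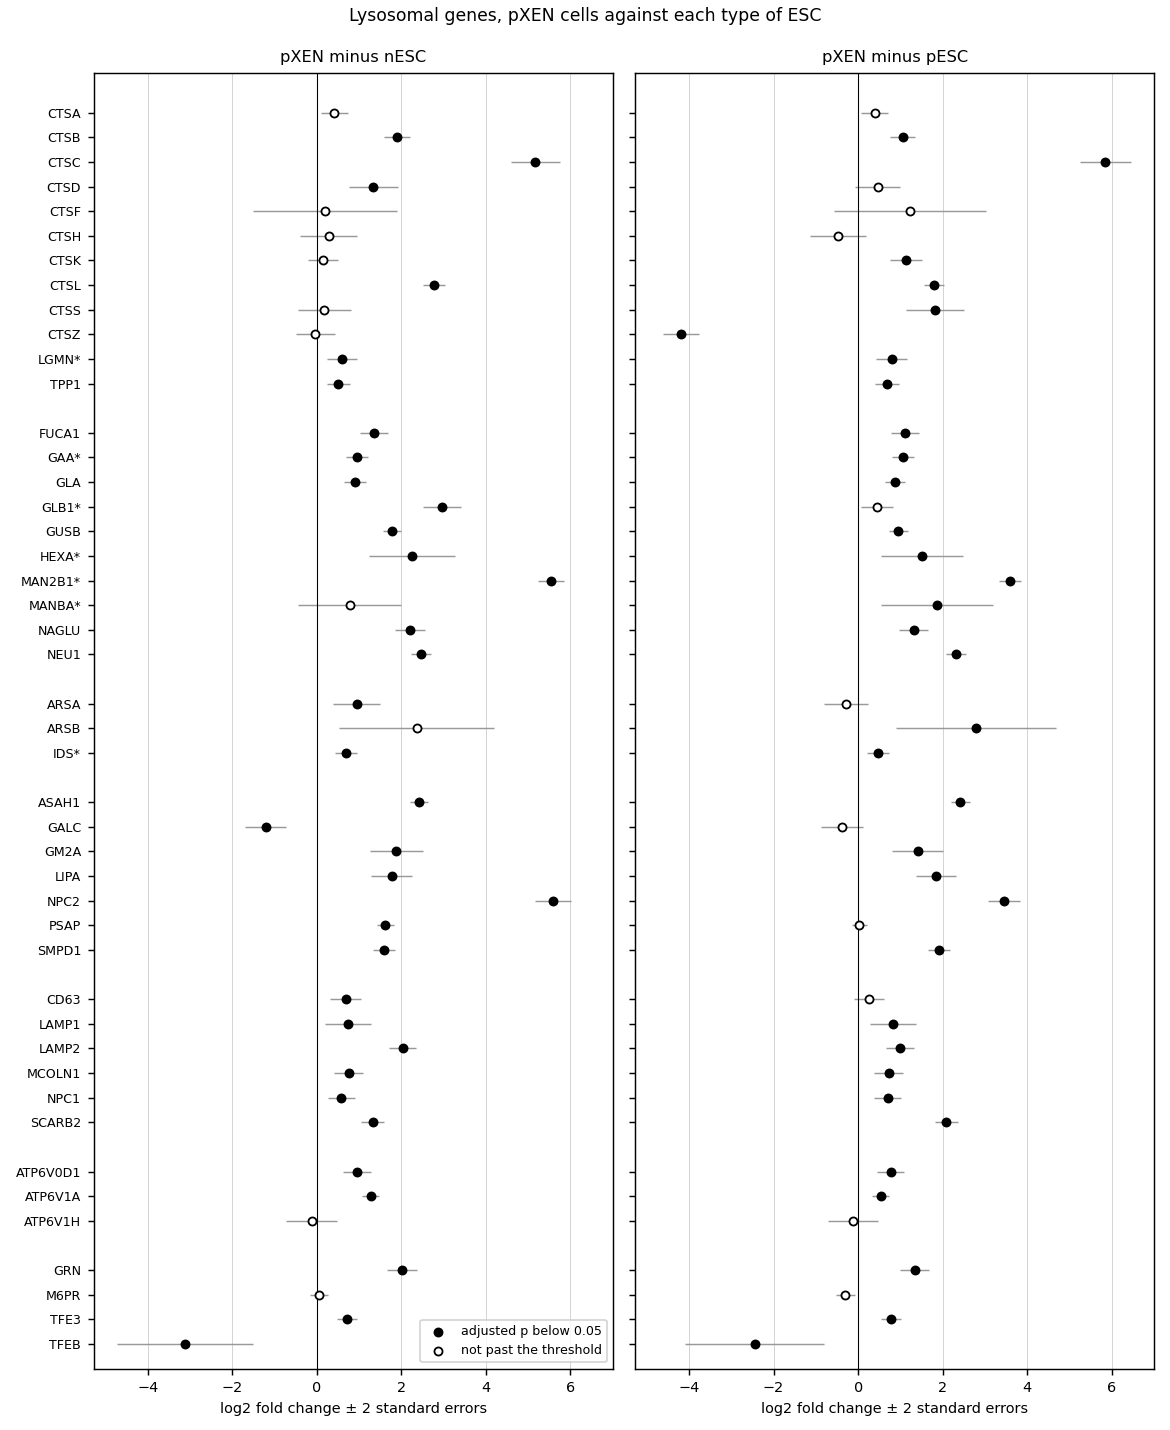
Log2 fold change of each tested lysosomal gene in pXEN cells against nESCs (left) and pESCs (right), with bars of 2 standard errors on each side; filled points passed the threshold of adjusted p below 0.05 and an asterisk marks genes matched by identifier. Most points lie right of 0 in both panels, CTSC, NPC2 and MAN2B1 furthest, and CTSZ (right panel), GALC (left panel) and TFEB (both panels) lie left of 0 with filled points.

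Of the 6 membrane proteins found, all were higher in pXEN cells than in nESCs (28.3% of all genes) and 5 were higher than in pESCs (83.3%; 23.9% of all genes), with median log2 fold changes of 0.74 and 0.78. SCARB2, the receptor that carries glucocerebrosidase to the lysosome, had 77.0, 94.9 and 73.5 FPKM in the pXEN lines, 31.6 and 33.7 FPKM in nESCs and 19.3 and 19.4 FPKM in pESCs. It was the only membrane member called lower in pESCs than in nESCs (log2 -0.77 ± 0.14, adjusted p = 0.00535), and it was higher in pXEN cells by 1.32 ± 0.14 (adjusted p = 0.000109) and 2.09 ± 0.14 (adjusted p = 2.09e-05). LAMP2, a major glycoprotein of the lysosomal membrane with an isoform used in chaperone-mediated autophagy, had 28.0, 34.0 and 24.6 FPKM in the pXEN lines, 7.59 and 6.53 FPKM in nESCs and 14.0 and 15.1 FPKM in pESCs. Its groups lay in the order pXEN, pESC, nESC, with log2 fold changes of 2.03 ± 0.16 (adjusted p = 3.19e-05) for pXEN cells and 1.03 ± 0.17 (adjusted p = 0.00304) for pESCs against nESCs. LAMP1, the paralogous glycoprotein that is often used to mark lysosomes, had 127, 209 and 107 FPKM in the pXEN lines, 97.9 and 79.6 FPKM in nESCs and 82.4 and 84.6 FPKM in pESCs. Line 2 was the highest and line 3 was close to nESC line 1. The test placed LAMP1 only just past the threshold, at 0.73 ± 0.27 (adjusted p = 0.0496) and 0.83 ± 0.27 (adjusted p = 0.0349). Without pXEN line 2 its log2 fold changes were 0.39 (adjusted p = 0.0217) and 0.49 (adjusted p = 0.00841), while the call against nESCs was lost without pXEN line 1 or any 1 ESC line (adjusted p = 0.0535 to 0.235), and that against pESCs without any 1 ESC line (adjusted p = 0.0525 to 0.156). Neither call held in limma fits or with only the groups compared (adjusted p = 0.0517 to 0.0713), and that against nESCs not with upper-quartile scaling (adjusted p = 0.0987). MCOLN1, the calcium channel of the lysosome, was higher by 0.75 and 0.72, calls lost without nESC line 1 (adjusted p = 0.0511) and without either pESC line (adjusted p = 0.0528 and 0.0681). The tetraspanin CD63 was higher by 0.68 against nESCs (adjusted p = 0.0142), but not without nESC line 1 or 2 (adjusted p = 0.0788 and 0.0777), and differed by 0.26 ± 0.18 (adjusted p = 0.266) from pESCs.

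Of the listed V-ATPase subunits, ATP6V1A, which carries the catalytic site, and ATP6V0D1, of the membrane sector, were higher in pXEN cells in both comparisons. ATP6V1A differed by 1.27 ± 0.10 (adjusted p = 3.12e-05) and 0.53 ± 0.10 (adjusted p = 0.00306) on the log2 scale, and ATP6V0D1 by 0.95 ± 0.16 and 0.77 ± 0.16. ATP6V1A lies on chromosome 13, whose 1129 tested genes had medians of 0.46 and 0.40 in the same comparisons, and the part of that shift in its difference was not tested. ATP6V1H was not called, at 8.38 to 17.8 FPKM in the pXEN lines, with line 2 highest, and 12.0 to 14.4 FPKM in the ESC lines.

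TFEB, the transcription factor best known for switching on lysosomal genes, was near the limit of detection and moved opposite to them. It had 1, 2 and 5 counts in the pXEN lines, 35 and 18 counts in nESCs and 28 and 8 counts in pESCs. The pXEN lines were all below the ESC lines, which themselves ranged widely, from 0.196 to 0.954 FPKM. The log2 fold change was -3.12 ± 0.80 against nESCs (adjusted p = 0.0105) and -2.45 ± 0.82 against pESCs (adjusted p = 0.0362), and the first call was lost without nESC line 1 (adjusted p = 0.0818) and the second without pXEN line 1, pXEN line 2, either nESC line or pESC line 1 (adjusted p = 0.0538 to 0.376) or in limma fits (adjusted p = 0.0557 and 0.116). Without pESC line 1 the log2 fold change against pESCs was -1.23. TFE3, a related factor that binds the same kind of site, was expressed at 23.9, 25.1 and 21.5 FPKM in the pXEN lines, 15.0 and 13.5 FPKM in nESCs and 13.5 and 14.1 FPKM in pESCs. It was thus the more abundant of the pair in every library, and it was higher in pXEN cells by 0.72 ± 0.12 (adjusted p = 0.0014) and 0.78 ± 0.12 (adjusted p = 0.00115). GRN, the granulin precursor that is cleaved in lysosomes, had 116, 82.4 and 122 FPKM in the pXEN lines, 27.8 and 24.7 FPKM in nESCs and 42.2 and 42.5 FPKM in pESCs. It was 4.05-fold and 2.53-fold higher in pXEN cells (adjusted p = 4.97e-05 and 0.000469). M6PR, the cation-dependent receptor for mannose 6-phosphate, had 46.5, 46.0 and 39.6 FPKM in the pXEN lines, 42.6 and 42.3 FPKM in nESCs and 52.9 and 56.1 FPKM in pESCs. It varied little across the lines, with log2 differences of 0.05 ± 0.11 (adjusted p = 0.747) and -0.30 ± 0.11 (adjusted p = 0.0526) for pXEN cells, and DESeq2, limma and upper-quartile scaling each called it lower in pXEN cells than in pESCs.

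By the same rule that named these genes, 13 of the 38 were called higher in pXEN cells in both comparisons by at least 1 on the log2 scale with no overlap of lines (34.2%; 12.7% of all genes): CTSB, CTSC, CTSL, SCARB2, NPC2, LIPA, NAGLU, NEU1, ASAH1, SMPD1, GM2A, GRN and FUCA1. TFEB alone was lower by that rule (2.63%; 8.82% of all genes). HEXA and MAN2B1, matched by identifier, met it as well. The second row named CTSL, higher by 0.56 on the log2 scale against nESCs, did not. Against pESCs, CTSB and HEXA fell short of 1 without pXEN line 2 (log2 0.91 and 0.76), as did CTSB with upper-quartile scaling, and FUCA1 without pESC line 2 and in limma on log2(FPKM + 1). Between pESCs and nESCs, 5 members were called higher in pESCs by at least 1 on the log2 scale (13.2%, beside 14.3% of all genes). These were CTSZ, NPC2, PSAP, ARSA and LAMP2. CTSS was lower (2.63%, beside 7.5% of all genes). The higher share was thus near that of all genes. MAN2B1 and GLB1 were higher among those matched by identifier. The ARSA and CTSS calls depended on single lines, as given above.

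**Figure D4:**
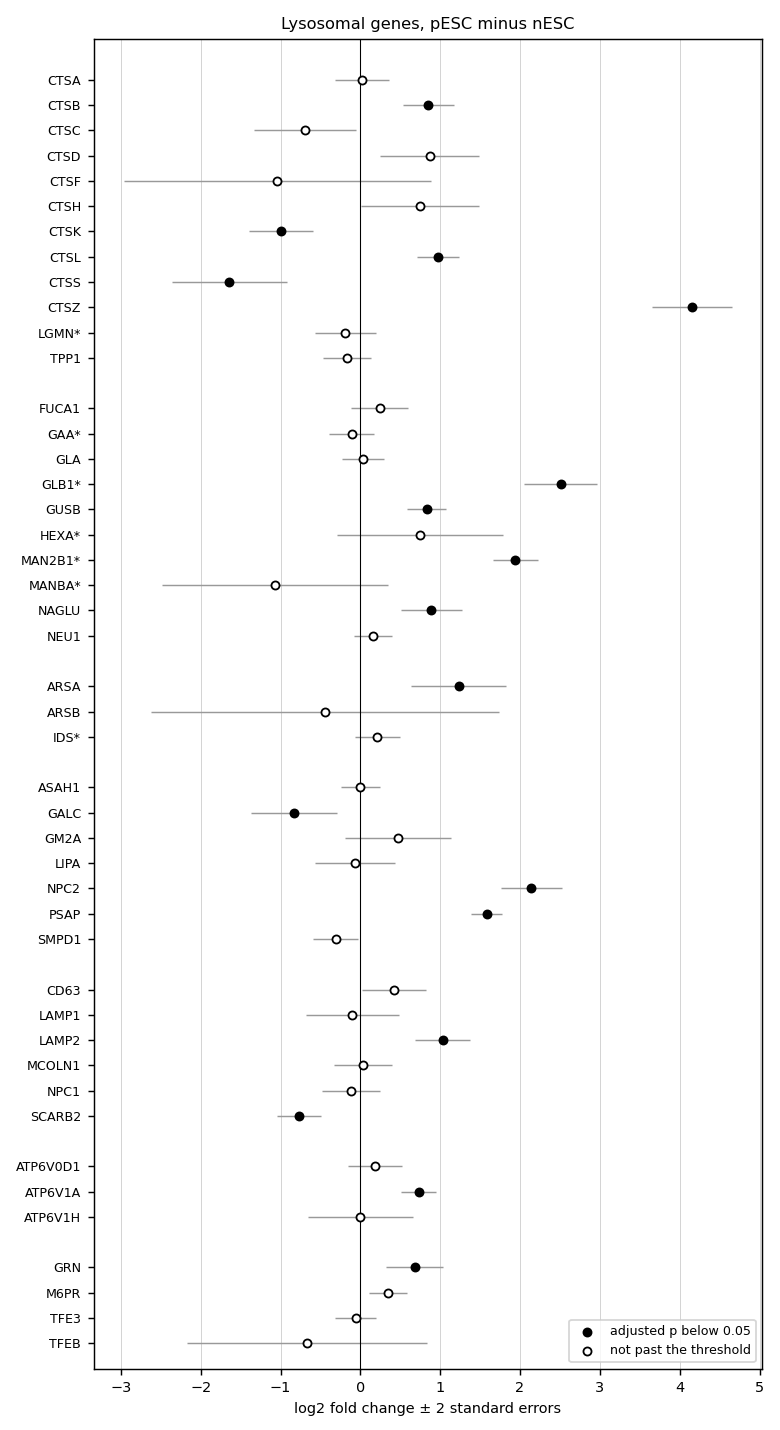
Log2 fold change of each tested lysosomal gene in pESCs against nESCs, with bars of 2 standard errors on each side; filled points passed the threshold of adjusted p below 0.05 and an asterisk marks genes matched by identifier. CTSZ lies at 4.15, GLB1 at 2.51, NPC2 at 2.14 and CTSS at -1.64, and the other points spread to both sides of 0.

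Of 16 genes tested that tag and deliver hydrolases, 12 were higher in pXEN cells than in nESCs (75%; 28.3% of all genes) and 2 lower (12.5%; 26.2%). Against pESCs 11 were higher (68.8%; 23.9% of all genes) and 1 lower (6.25%; 24.4%). The medians were 0.99 and 0.84. AP1M2, the epithelial subunit of the AP-1 clathrin adaptor, had 94.5, 93.8 and 91.9 FPKM in the pXEN lines, 0 FPKM in both nESC lines and 0 and 0.300 FPKM in the pESC lines. It was abundant in pXEN cells and had at most 4 counts in an ESC library, at least 358-fold higher than in nESCs against the floor of 3 counts per library. Its ubiquitous counterpart AP1M1 had 16.1, 14.7 and 14 FPKM in the pXEN lines, 26.4 and 25.5 FPKM in nESCs and 16 and 15 FPKM in pESCs. Both subunits were thus present in pXEN cells, with AP1M2 the more abundant. The adaptor GGA2, which picks up mannose 6-phosphate receptors, had 142 to 195 FPKM in pXEN cells and 14.9 to 29.8 FPKM in ESCs (log2 2.66 ± 0.19, adjusted p = 1.47e-05, and 3.39 ± 0.19, adjusted p = 9.57e-06). SUMF1, which activates sulfatases, had 82.8 to 111 FPKM in pXEN cells and 8.40 to 16.3 FPKM in ESCs (log2 3.25 ± 0.21, adjusted p = 9.34e-06, and 2.65 ± 0.20, adjusted p = 3.26e-05). IGF2R, the large mannose 6-phosphate receptor, was lower in pXEN cells by -0.65 ± 0.12 (adjusted p = 0.00211) and -0.47 ± 0.12 (adjusted p = 0.0124). Neither mannose 6-phosphate receptor was therefore higher in pXEN cells.

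Among 13 other lysosomal hydrolases tested, 8 were higher in pXEN cells than in nESCs (61.5%; 28.3% of all genes) and 1 lower (7.69%; 26.2%). Against pESCs 7 were higher (53.8%; 23.9% of all genes) and 1 lower (7.69%; 24.4%). The medians were 0.78 and 0.76. HYAL1, a hyaluronidase, had 10.8 to 17.8 FPKM in the pXEN lines, 0 and 0.0551 FPKM in nESCs and 2.60 and 1.91 FPKM in pESCs. The sulfatase GALNS was higher by 2.32 ± 0.17 (adjusted p = 1.86e-05) and 1.99 ± 0.17 (adjusted p = 5.67e-05), and the acid nuclease DNASE2 by 2.08 ± 0.20 (adjusted p = 8.29e-05) and 1.82 ± 0.20 (adjusted p = 0.000209).

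Of the other 14 V-ATPase subunits, 6 were higher in pXEN cells than in nESCs (42.9%; 28.3% of all genes) and 2 lower (14.3%; 26.2%). Against pESCs 5 were higher and 5 lower (35.7% each; 23.9% and 24.4% of all genes), and all genes too were split about evenly there. The medians were 0.29 and 0.05. Of the a subunits, TCIRG1 had 8.57, 10.3 and 8.78 FPKM in the pXEN lines and 0.874 to 2.25 FPKM in ESCs, and ATP6V0A4 had 3.07, 6.01 and 1.13 FPKM against 0.0817 to 0.153 FPKM. Both were higher in pXEN cells, TCIRG1 by 3.31 ± 0.23 (adjusted p = 1.47e-05) and 2.19 ± 0.21 (adjusted p = 0.000114), while ATP6V0A2 was lower, by -0.86 ± 0.12 (adjusted p = 0.000564) and -0.83 ± 0.12 (adjusted p = 0.000877). Of the d subunits, ATP6V0D2 had 9.46, 8.75 and 9.62 FPKM in the pXEN lines, 0 FPKM in nESCs and 0 and 0.104 FPKM in pESCs, at least 76.7-fold higher than in nESCs against the floor. ATP6V0D1, the listed d subunit, remained the more abundant one in pXEN cells, at 20.1 to 26.5 FPKM. ATP6V1G2, a G subunit known from neurons, was lower in pXEN cells (log2 -2.30 ± 0.48, adjusted p = 0.00425, and -2.03 ± 0.48, adjusted p = 0.00896). A different pair, chosen after the values were seen, marked the primed cells. ATP6V1B1 had 4.26 and 3.84 FPKM in the pESC lines and at most 0.246 FPKM elsewhere, and ATP6V1C2 had 19.2 and 14.3 FPKM against at most 1.30 FPKM. Both were lower in pXEN cells than in pESCs, by -4.72 ± 0.41 (adjusted p = 6.85e-05) and -4.11 ± 0.43 (adjusted p = 0.000169).

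**Figure D5:**
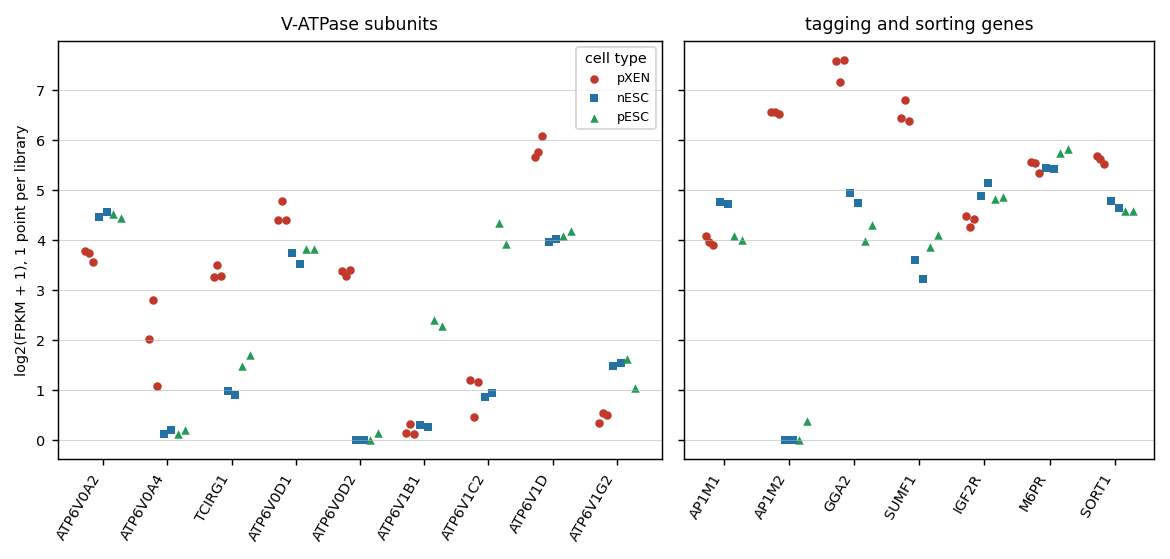
Level as log2(FPKM + 1) of V-ATPase subunits (left) and of tagging and sorting genes (right), 1 point per library (circles pXEN, squares nESC, triangles pESC). The pXEN circles stand above the ESC points for TCIRG1, ATP6V0A4, ATP6V0D2, ATP6V1D, AP1M2, GGA2, SUMF1 and SORT1 and below them for ATP6V0A2, ATP6V1G2 and IGF2R, while ATP6V1B1 and ATP6V1C2 are highest in the pESC triangles.

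Of 16 other lysosomal membrane proteins and transporters, 4 were higher in each comparison (25%), close to the 28.3% and 23.9% of all genes. Lower calls numbered 3 against nESCs (18.8%; 26.2% of all genes) and 1 against pESCs (6.25%; 24.4%), and the medians were 0.07 and -0.17. LMBRD1, which exports cobalamin, was higher by 2.24 ± 0.11 (adjusted p = 2.99e-06) and 1.42 ± 0.10 (adjusted p = 2.95e-05), and the sialomucin CD164 by 1.23 ± 0.14 (adjusted p = 0.000178) and 0.74 ± 0.14 (adjusted p = 0.00283). Of 11 genes of lysosomal nutrient sensing and its regulators, 1 was higher (9.09%) and 2 were lower (18.2%) in each comparison. All genes stood at 28.3% and 26.2% against nESCs and at 23.9% and 24.4% against pESCs. The median of the 11 was 0.02 in both. The genes called were not the same. Against nESCs TFEC was higher, on 4, 5 and 3 counts in the pXEN lines, and RRAGD and LAMTOR2 were lower. Against pESCs MITF was higher, and RRAGD and TFEC were lower. RRAGD, a Rag GTPase, was lower in pXEN cells by -1.84 ± 0.45 (adjusted p = 0.00923) and -2.35 ± 0.45 (adjusted p = 0.00327). The remaining relatives of TFEB, named after their values were seen, differed in place. TFEC had 2.46 and 3.54 FPKM in the pESC lines, 0.0671 to 0.107 FPKM in the pXEN lines and 0 FPKM in nESCs. MITF had 3.76, 1.46 and 9.79 FPKM in the pXEN lines, 3.33 and 3.17 FPKM in nESCs and 0 FPKM in both pESC lines. These values rest on 11, 5 and 32 counts in the pXEN lines and 12 and 11 counts in nESCs, so its level is poorly resolved.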

How the data were processed

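Gene expression was measured by RNA-seq in 3 pXEN, 2 nESC and 2 pESC lines. The deposited counts are whole reads per gene, made by the authors with HISAT2 2.0.5 and featureCounts 1.5.0-p3 on Sscrofa10.2, and the submitters' notes also name edgeR 3.22.5. The deposited FPKM values are those counts divided by gene length and by a library total the authors had scaled by 0.913 to 1.08. Levels are quoted in FPKM and fold changes come from the counts.

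All 7 libraries were fitted in 1 model (edgeR 4.0.16, R 4.3.3, TMM, filterByExpr by group, quasi-likelihood test, Benjamini-Hochberg over 17447 genes, threshold 0.05), giving a biological coefficient of variation of 0.223. Nothing shows that lines came from separate embryos, so p-values measure only the spread between these lines. Standard errors are the fitted log2 fold change divided by the square root of the test's F. The floor of 3 counts covers counting error only.

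Rows were matched by gene name, taking the row with most counts where a name was repeated. Values of every library are given for genes called in both pXEN comparisons by at least 1 (log2) without overlap, or between pESCs and nESCs by at least 1, and for TFEB, TFE3, M6PR and LAMP1; values of GALC are given because it is 1 of the few lower genes. From other lists, at most 3 genes a direction with the largest smaller change are named. Members and lists were chosen with earlier results of these data known. Alternatives were DESeq2 1.42.0, limma 3.58.1 on log2(FPKM + 1) and log2(FPKM + 0.1), upper-quartile scaling, other filters, only the groups compared, a replicate block, and leaving out each library. Promoter motifs were not searched, and no sequences were used here. The scripts were tested on simulated data.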

Additional observations from a re-analysis of the deposited data

How the results depend on the processing

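The higher calls ranged from 22 to 28 of the lysosomal genes against nESCs, from 22 to 26 against pESCs and from 8 to 15 for pESCs against nESCs over the alternatives that kept the threshold and the genes found by name, beside 21 to 30.2%, 14.7 to 26.5% and 11.1 to 24.4% of all genes, and the median log2 fold changes from 0.94 to 1.26, 0.80 to 0.96 and 0.00 to 0.18. Requiring a change of at least 1 left 16 higher against pESCs (42.1%; 16.5% of all genes), and 5 higher (13.2%; 14.3% of all genes) and 1 lower (2.63%; 7.5% of all genes) for pESCs against nESCs, where the higher share was thus near that of all genes. The few lower calls also moved, as did the share of all genes called lower. Against nESCs there was 1 with at least 10 counts in every library (27.1% of all genes). There were 2 to 3 when a pXEN library was left out (22.7 to 29.8% of all genes). Against pESCs there was 1 with only the 2 groups compared (24.1%). Leaving out a pXEN library gave 1 to 4 (20.8 to 28.9%). For pESCs against nESCs there were 3 to 4 when a pXEN library was left out (12.1 to 19.4%). With the other row of CTSL and CTSF there were 5, beside 13.3% of all genes. Without nESC line 1 TFEB was no longer called lower against nESCs. Without pXEN line 2 the lower genes were GALC, TFEB and ATP6V1H against nESCs and CTSZ, CTSH, ATP6V1H and M6PR against pESCs. Without pXEN line 1, either nESC line or pESC line 1, only CTSZ was lower against pESCs. For pESCs against nESCs, only SCARB2 was lower without pESC line 2, CTSS and SCARB2 without nESC line 1, and CTSK and SCARB2 without nESC line 2. Upper-quartile scaling moved the median of all genes to -0.16 against nESCs and changed 4 of the 86 calls of single genes. Of those 86 calls, 61 held under every alternative run, 25 were lost under at least 1 and none reversed; 12 to 17 were lost when an nESC or pESC library was left out, which leaves a lone line assumed to vary like the other groups. Same-numbered pXEN and pESC lines deviated together weakly (r of 0.126 and 0.162 over genes) but the other same-numbered pairs did not (-0.0758 to 0.00139), and the numbers share no stated origin, so the lines were not taken as paired; with the replicate block 28, 26 and 11 genes were higher, beside 25.5%, 20.3% and 17.5% of all genes, and 3 single calls were lost, ARSB and MANBA against pESCs and GALC in pESCs against nESCs. With 2 or 3 lines a group and 10408164 to 12995720 counts a library, differences in weakly expressed members such as TFEB, ARSB and MANBA are poorly resolved.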

Other observations

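Of 19 autophagy genes, whose products bring cytoplasmic cargo to the lysosome, 8 were higher in pXEN cells than in nESCs (42.1%; 28.3% of all genes) and 2 lower (10.5%; 26.2%). Against pESCs 5 were higher (26.3%), near the 23.9% of all genes, and 2 lower (10.5%; 24.4%). The median log2 fold changes were 0.45 and 0.19. The cargo receptor SQSTM1 had 175, 181 and 182 FPKM in the pXEN lines, 44.9 and 34.7 FPKM in nESCs and 71.0 and 87.5 FPKM in pESCs, without overlap (log2 2.17 ± 0.15, edgeR adjusted p = 1.46e-05, and 1.19 ± 0.14, adjusted p = 0.000348). WIPI1, which acts on the growing autophagosome, was higher by 1.58 ± 0.20 and 1.09 ± 0.19, and the initiating kinase ULK1 by 1.29 ± 0.12 and 0.89 ± 0.12. VPS39, a tethering subunit of the HOPS complex, was lower by -0.59 ± 0.11 (adjusted p = 0.00297) and -0.46 ± 0.11 (adjusted p = 0.0105). The cathepsin inhibitors CST3 and CSTB were not called in either comparison, CST3 at 92.3 to 183 FPKM in pXEN cells and 102 to 155 FPKM in ESCs and CSTB at 33.1 to 36.1 FPKM and 34.6 to 37.3 FPKM.

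Over the 37 lysosomal genes found by name with a mean of at least 10 counts in pXEN cells, the highest pXEN line was a median of 1.33 times the lowest, near the 1.37 over 15027 genes tested. Of the 37, 3 (8.11%) differed by more than 2 times, CTSF, CTSH and ATP6V1H, beside 17.8% of all genes. Outside that count, the ratio was 4.48 for TFEB, 3.12 for HEXA and 2.83 for MANBA. In CTSH and ATP6V1H the high line was line 2.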
